A study of Mus musculus with 5 samples.

Results

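Many mouse genes give rise to more than 1 mature mRNA, through alternative start sites, alternative splicing and alternative ends, and the isoform that makes up most of a gene's mRNA can differ from cell type to cell type. The genes described here are those in which 1 isoform dominated in cultured dorsal root ganglion (DRG) neurons and another in cultured cerebellar granule neurons (CGNs). They were chosen from the FPKM of each isoform in 5 libraries, a level in which the sequenced fragments of a transcript are scaled for its length and for the depth of the library. A gene qualified with 2 to 9 isoforms, a summed FPKM of at least 50 in every library, the same top isoform in all 3 DRG libraries, another top isoform in both CGN libraries, and a share of at least 60% of the gene's FPKM for that isoform in each library of its cell type. This gave 70 genes among the 6374 genes of 2 to 9 isoforms with enough FPKM (1.10%), out of 15154 genes in all. Since the choice used the difference between DRG neurons and CGNs, the shares and levels of these isoforms are given as a description, with no test.

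DRG neurons and CGNs both came from C57bl/6j mice at postnatal day 8 and were grown on laminin over poly-d-lysine, and polyadenylated RNA was sequenced. The 3 DRG libraries each held the ganglia of 2 mice, kept for 16 days with nerve growth factor and with FuDR, an inhibitor of dividing cells. The 2 CGN libraries each came from 1 mouse and were taken after 16 hours. Time in culture and the mice per library cannot be told apart from the cell type. Nor can nerve growth factor and FuDR, which the study states for the DRG cultures alone. The DRG cultures were not wholly neuronal, and values below are those of the cultures. DRG neurons are sensory neurons of the peripheral nervous system with long axons, and CGNs are small glutamatergic neurons of the cerebellum.

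The study states the reads of each library, but the table gives FPKM and no counts, so the precision of a value is given by the spread between libraries and by the deposited confidence bounds. Summed FPKM was 51860685 to 62824363 in the DRG libraries, against 22444463 to 37275184 in the CGN libraries. Of the sensory neuron markers, 11 of 11 tested genes were higher in DRG neurons (limma, adjusted p under 0.05), with summed levels of 433802 to 603524 FPKM in DRG neurons, against 2209 to 2580 FPKM in CGNs. Of the granule neuron markers, 8 of 8 tested genes were lower in DRG neurons, with 529 to 1353 FPKM in DRG neurons, against 148741 to 233561 FPKM in CGNs. Other cells moved with the comparison too. Fibroblast markers were higher in DRG neurons for 9 of 10 tested genes and Schwann and satellite glia markers for 6 of 11, with 1 of 11 lower, and Dhh listed at 0 in both CGN libraries and Gjb1 at 0 in all 5. Microglia markers were lower for 4 of 4, astrocyte and Bergmann glia markers for 4 of 7 with 2 higher, endothelial markers for 1 of 3, and proliferation markers for 6 of 7 with 1 higher. Summed levels were 58144 to 111768 FPKM in DRG neurons, against 4036 to 10547 FPKM in CGNs, for fibroblast markers, and 90141 to 141173 FPKM in DRG neurons, against 23845 to 32620 FPKM in CGNs, for Schwann and satellite glia markers. Their part in the isoform differences was not tested. In bulk RNA, fewer cells of a type and less RNA per cell cannot be told apart.

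An isoform is a row of the deposited table, either a reference transcript, given here by its UCSC identifier (uc009myu.1), or a transcript assembled from the reads before deposit, given by the gene's symbol with a suffix (Vamp4_j1). The exons of each row are not used here, so it is not known which row holds a given exon. To show what can differ between mRNAs of these genes, protein-coding segments that only some coding transcripts of GENCODE M1 contain were read from the mouse genome, build mm9 (NCBIM37). Such a segment was annotated in 46 of 69 matched members (66.7%) and in 58.1% of 5960 genes of the same kind. The segments below are a multiple of 3 bases long and from members described further on. Each is written 5′ to 3′ on the coding strand, with the segment in capitals and 12 genomic bases on each side in lower case.
Ndrg4, chr8:98236225-98236263, plus strand, in 2 of 4 coding transcripts: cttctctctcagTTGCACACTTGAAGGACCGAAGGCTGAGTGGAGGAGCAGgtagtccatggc
Csnk1d, chr11:120826295-120826324, minus strand, in 1 of 4 coding transcripts: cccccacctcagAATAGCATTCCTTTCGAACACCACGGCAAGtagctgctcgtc
Dpf2, chr19:5903731-5903772, minus strand, in 1 of 2 coding transcripts: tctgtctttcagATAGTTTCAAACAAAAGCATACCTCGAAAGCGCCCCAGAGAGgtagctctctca
Gpd2, chr2:57214197-57214250, plus strand, in 1 of 3 coding transcripts: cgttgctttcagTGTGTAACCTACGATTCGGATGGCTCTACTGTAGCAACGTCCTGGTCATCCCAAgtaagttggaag
Opa1, chr16:29588909-29588962, plus strand, in 2 of 5 coding transcripts: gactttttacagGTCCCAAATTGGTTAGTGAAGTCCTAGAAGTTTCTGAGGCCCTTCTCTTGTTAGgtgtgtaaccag
Opa1, chr16:29597672-29597782, plus strand, in 3 of 5 coding transcripts: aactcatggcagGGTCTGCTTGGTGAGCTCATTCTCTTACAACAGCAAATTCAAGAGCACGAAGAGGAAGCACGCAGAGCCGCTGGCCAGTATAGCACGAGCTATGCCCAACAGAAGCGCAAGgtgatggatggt
Gphn, chr12:79594937-79595044, plus strand, in 1 of 2 coding transcripts: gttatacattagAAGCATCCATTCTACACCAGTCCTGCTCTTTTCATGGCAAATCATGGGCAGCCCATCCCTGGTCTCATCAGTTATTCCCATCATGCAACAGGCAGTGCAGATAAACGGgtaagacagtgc
Gphn, chr12:79623885-79623941, plus strand, in the other coding transcript: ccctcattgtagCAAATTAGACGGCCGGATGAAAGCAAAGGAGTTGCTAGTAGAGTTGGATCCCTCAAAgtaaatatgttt
Each of these follows an AG, the letters that end most introns. The Csnk1d segment is the end of the coding part of its transcript, followed by the stop codon TAG, and the other segments are followed by GT, the letters with which most introns start.

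Across the 70 genes, the DRG top isoform held a median of 71.2 percentage points more of the gene's FPKM in DRG neurons than in CGNs, with a range of 28.5 to 100.0 points. The smallest share of a top isoform over the 5 libraries had a median of 67.4%, and it was at least 80% in 12 genes and at least 90% in 5. The genes just inside the limit were Gpd2 (60.05%), Rbak (60.08%) and Xpo1 (60.09%), and those just outside were Golim4 (59.73%), Mbc2 (59.69%) and Pcolce (59.57%). In 34 genes the DRG top isoform was higher in every DRG library than in every CGN library and the CGN top isoform lower, so that both isoforms moved in opposite directions. In 23 genes the DRG top isoform was higher while the CGN top isoform overlapped between the cell types. In 7 genes the DRG top isoform overlapped and the CGN top isoform was lower in DRG neurons. Both isoforms were higher in DRG neurons in Ndrg4, Vamp4, Klhdc1, Bet1 and Pla2g12a, and both were lower in Ppm1d. In these 6 genes the leading isoform thus changed although both moved the same way. All these directions are of FPKM as deposited, and no other scaling was tried on the isoforms. Summed FPKM of the DRG libraries was on average 1.88 times that of the CGN libraries, so the directions may depend on the scaling. The choice of genes also shapes these counts, which were not made over all genes, so nothing is read from them.

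**Figure D1:**
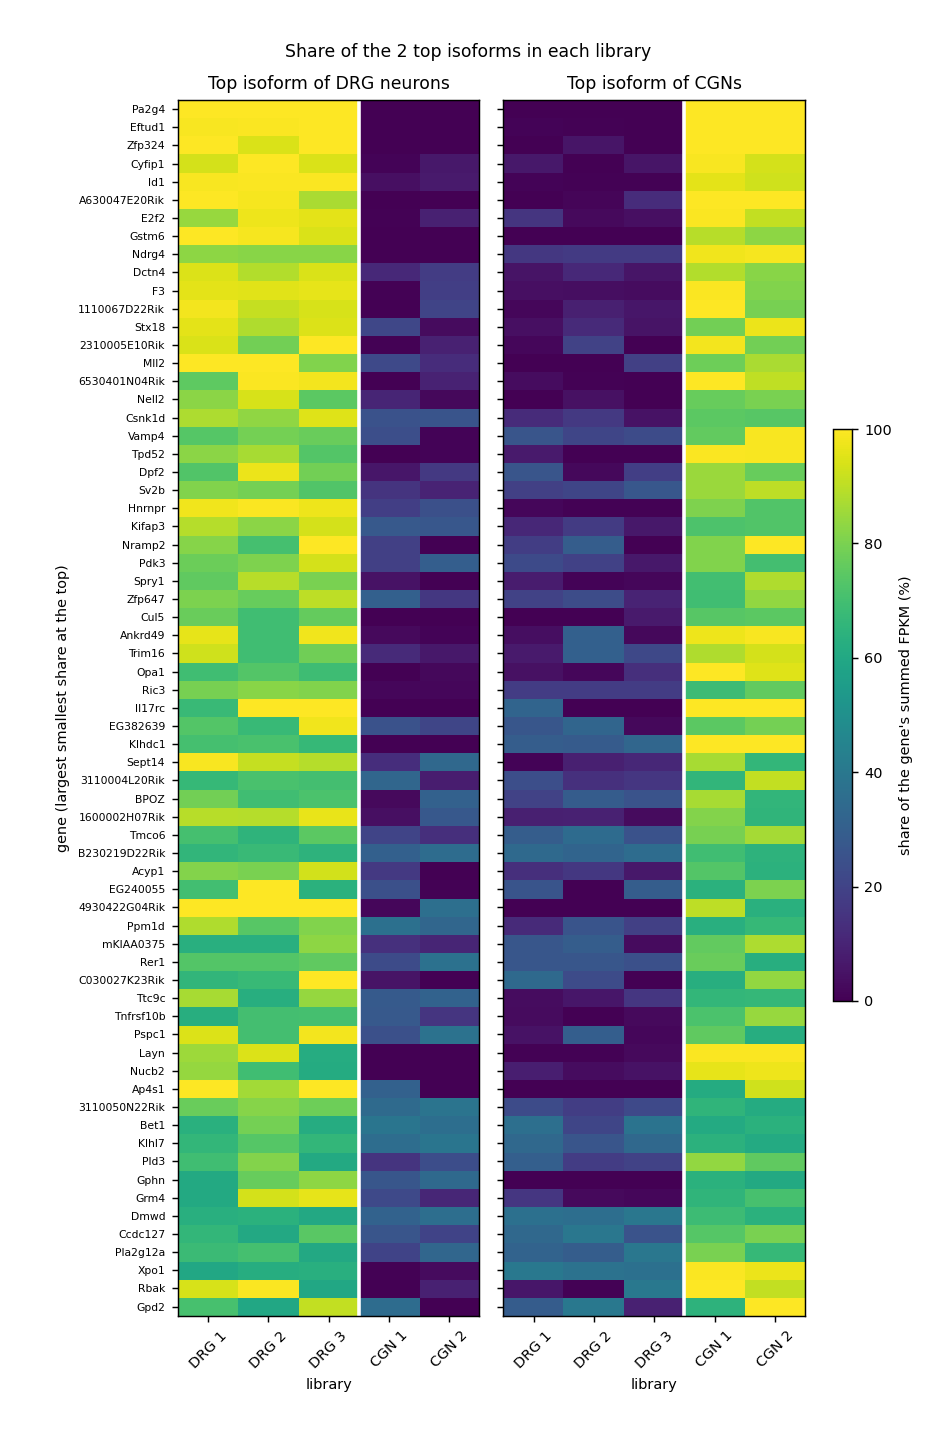
Share of the gene's summed FPKM (%, colour) held by the top isoform of DRG neurons (left panel) and of CGNs (right panel) in each of the 3 DRG and 2 CGN libraries, for 67 of the 70 genes, ordered by their smallest share. Pa2g4, at the top, changes almost completely, with shares of at least 99.9% in every library, while Gpd2, at the bottom, has a smallest share of 60.05%.

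**Figure D2:**
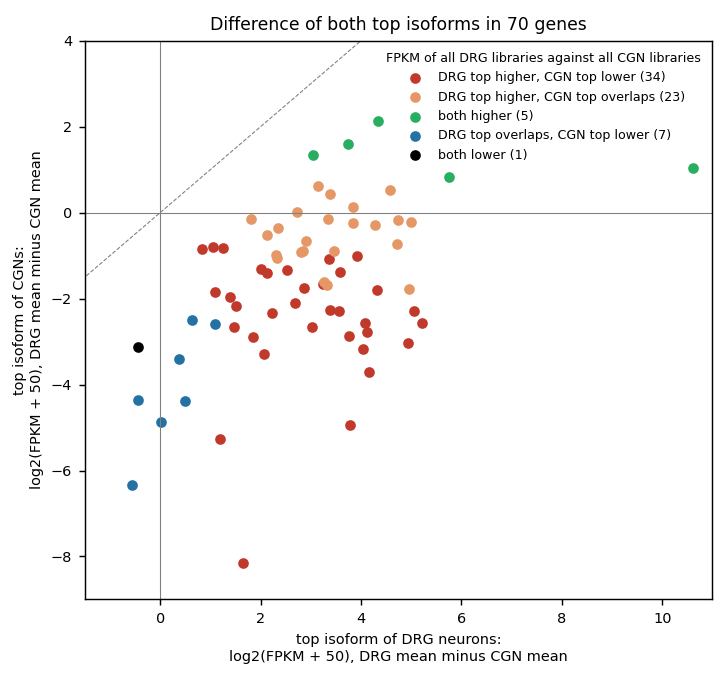
Difference of log2(FPKM + 50) between the DRG mean and the CGN mean for the top isoform of CGNs (vertical axis) against that for the top isoform of DRG neurons (horizontal axis), 1 point for each of the 70 genes, coloured by whether all DRG libraries lie above, below or overlap the CGN libraries. All points lie below the dashed line of equal difference, as the choice of genes fixes. In 34 the isoforms move in opposite directions, a count that the choice of genes also shapes.

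Genes of the synapse and the cell surface of the nervous system made up 7 members. In 5 of them the confidence bounds of both isoforms were apart in all 5 libraries, as in 41 of all 70 members, and nothing is read from this count. Ndrg4, a cytoplasmic protein of the NDRG family that is abundant in neurons, had the highest total of all members in the DRG libraries. Its isoform uc009myu.1 stood at 107448, 88595 and 102094 FPKM in DRG neurons, against 6.91 and 20.8 FPKM in CGNs. Isoform uc009myt.1 had 21222, 18049 and 21047 FPKM in DRG neurons, against 8612 and 11157 FPKM in CGNs. Both were thus higher in DRG neurons, by log2(FPKM + 50) differences of 10.61 and 1.03, and the share of uc009myu.1 was 82.5% ± 0.270 in DRG neurons and 0.131% ± 0.0749 in CGNs (SD, n = 3 and 2). The shares of the 3 DRG libraries lay between 82.4% and 82.9%.

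Sv2b encodes a glycoprotein of synaptic vesicles. Its isoform uc009hwk.1 had 608, 700.2 and 646 FPKM in DRG neurons, against 196 and 207 FPKM in CGNs, and uc009hwl.1 had 142, 184 and 240.2 FPKM in DRG neurons, against 1106 and 1848 FPKM in CGNs. Every DRG library was above every CGN library for uc009hwk.1 and below for uc009hwl.1. Nell2, a secreted glycoprotein of neurons, had uc007xjq.1 at 334, 577 and 286 FPKM in DRG neurons, against 236 and 75.9 FPKM in CGNs. Its assembled isoform Nell2_j2 had 1.55, 27.2 and 0.46 FPKM in DRG neurons, against 1758 and 2716 FPKM in CGNs, and the total of the gene was lower in every DRG library, with a log2(FPKM + 50) difference of -2.49.

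Gephyrin (Gphn) anchors glycine and GABA-A receptors at inhibitory synapses. Its assembled isoform Gphn_j2 had 544, 1107 and 580.4 FPKM in DRG neurons, against 460.3 and 1049.7 FPKM in CGNs, which overlapped. Gphn_j1 had 0.07, 0.99 and 0.48 FPKM in DRG neurons, against 1103 and 1881 FPKM in CGNs. The change of the leading isoform of Gphn thus lay in Gphn_j1, which was close to 0 in every DRG library. Grm4, a metabotropic glutamate receptor that granule neurons are known to place at their axon terminals, had the same form. Grm4_j1 had 107, 303 and 215 FPKM in DRG neurons, against 442 and 177 FPKM in CGNs, and Grm4_j3 had 28.2, 8.73 and 3.78 FPKM in DRG neurons, against 1319 and 1188 FPKM in CGNs. Ric3, a chaperone of nicotinic acetylcholine receptors, was led by Ric3_j1, at 1513 to 2589 FPKM in DRG neurons and 9.75 to 15.4 FPKM in CGNs, and in CGNs by uc009jdg.1, which overlapped between the cell types.

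**Figure D3:**
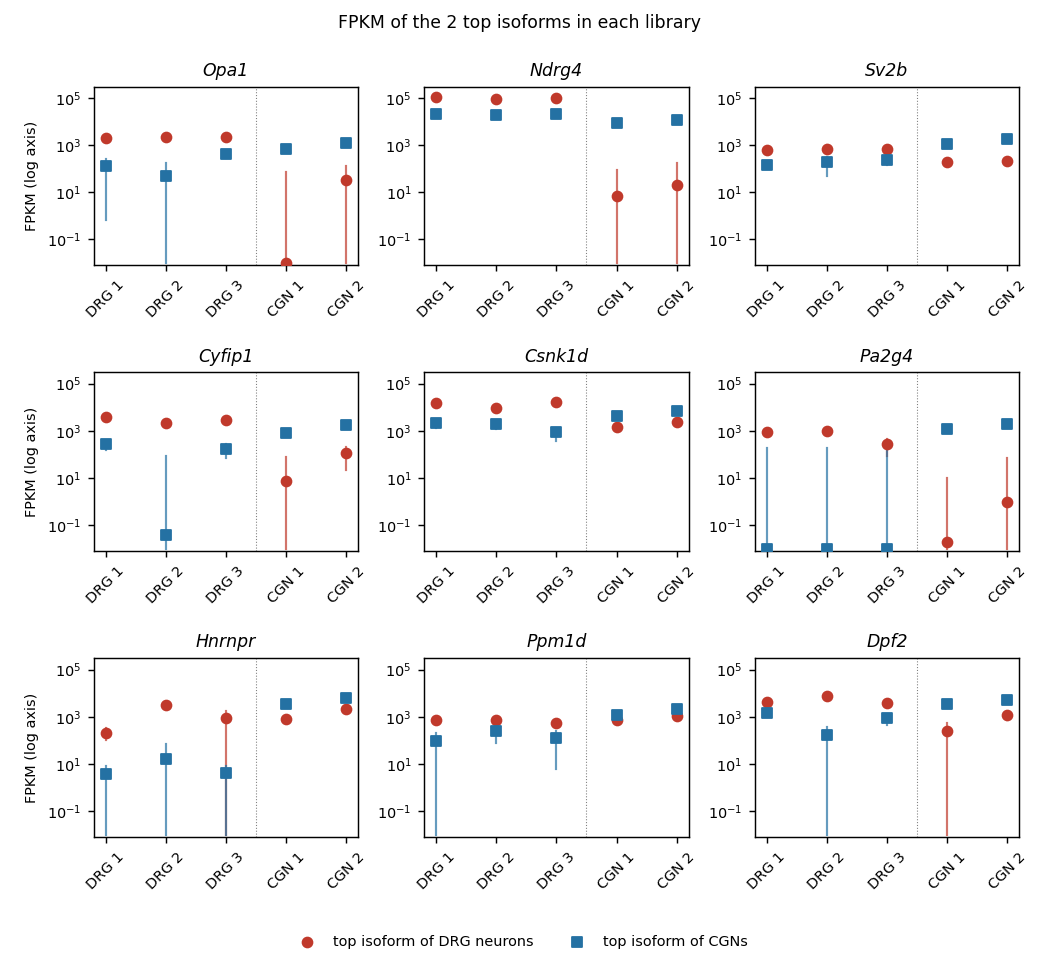
FPKM (log axis) of the top isoform of DRG neurons (circles) and of CGNs (squares) in each library for 9 genes, with the authors' 95% confidence bounds as lines; values and bounds under 0.01 FPKM are drawn at 0.01. In Ndrg4 both isoforms are higher in DRG neurons, in Ppm1d both are lower, and in Hnrnpr the circles overlap between the cell types while the squares do not.

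Genes of vesicle traffic, motors and the cytoskeleton were 11, and 9 of them had totals above CGNs in every DRG library, as had 37 of all 70 members and 46.5% of the 6374 genes, and nothing is read from this count. Vamp4, a SNARE of the trans-Golgi network and endosomes, had Vamp4_j1 at 10745, 11267 and 8318 FPKM in DRG neurons, against 414 and 24.7 FPKM in CGNs. Its isoform uc007dgk.1 had 3817, 2972 and 2476 FPKM in DRG neurons, against 1294 and 2193 FPKM in CGNs. Both isoforms of Vamp4 were higher in DRG neurons, that of DRG neurons by far more. Stx18, a SNARE of the endoplasmic reticulum, had uc008xfy.1 at 2137, 2001 and 1501 FPKM in DRG neurons, against 43.1 and 4.54 FPKM in CGNs. Its uc008xfx.1 had 88.4, 273 and 84.5 FPKM in DRG neurons, against 160.0 and 149 FPKM in CGNs, which overlapped. The locus of Stx18 in the table also covers Nsg1.

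Dctn4, a subunit of dynactin, which links dynein to its cargo, had uc008faj.1 at 13002, 12688 and 11741 FPKM in DRG neurons, against 347 and 935 FPKM in CGNs. Its uc008fak.1 had 708, 1636 and 728 FPKM in DRG neurons, against 2711 and 4323 FPKM in CGNs. Kifap3 is the adaptor that ties the motor kinesin-2 to cargo. Its uc007dho.1 had 13299, 10782 and 14392 FPKM in DRG neurons, against 842 and 1462 FPKM in CGNs, and Kifap3_j1 had 1666, 2281 and 981 FPKM in DRG neurons, against 2164 and 3916 FPKM in CGNs. The DRG top isoforms of these dynein and kinesin partners did not overlap between the cell types, while Kifap3_j1 did.

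Cyfip1, a part of the WAVE complex that starts actin branching and a partner of FMRP, showed 1 of the most complete changes between reference transcripts (chr7:63097441-63188947, a locus shared with Nipa2). Its uc009hdl.1 had 3818, 2146 and 2975 FPKM in DRG neurons, against 7.58 and 114 FPKM in CGNs. The isoform uc009hdn.1 had 268, 0.04 and 176 FPKM in DRG neurons, against 843 and 1697 FPKM in CGNs, and the share of uc009hdl.1 was 96.0% ± 3.53 in DRG neurons and 3.58% ± 3.81 in CGNs (SD, n = 3 and 2). Tpd52, named for tumours and linked to vesicle traffic, had Tpd52_j2 at 2184, 2694 and 1152 FPKM in DRG neurons, against 1.08 and 3.99 FPKM in CGNs. Its Tpd52_j3 had 192 FPKM, 0 and under 0.001 FPKM in DRG neurons, against 412 and 492 FPKM in CGNs. In an FPKM that the authors estimated from the CGN libraries jointly, Tpd52_j3 held almost none of the gene.

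Further members of the traffic group had smallest shares of 61.3% to 62.8%. Bet1, a SNARE between the endoplasmic reticulum and the Golgi apparatus, was led by uc009avk.1 in DRG neurons and by Bet1_j1 in CGNs, and both were higher in DRG neurons. Rer1, which retrieves proteins to the endoplasmic reticulum, was led by uc008wct.1, with 73.1% to 75.7% of the gene in DRG neurons, and by uc008wcu.1, with 62.8% to 77.3% in CGNs. Ap4s1, the small subunit of the adaptor complex AP-4, was led by uc007nmv.1 and in CGNs by Ap4s1_j1, which was under 0.001 FPKM in all 3 DRG libraries and at 184 and 539 FPKM in CGNs. Nucb2, the precursor of nesfatin, was led by Nucb2_j1, with 70.8 to 293 FPKM in DRG neurons and under 0.01 FPKM in CGNs, and in CGNs by uc009jjk.1.

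The RNA, ribosome and nuclear export group held 6 members, among them the gene with the most complete change. Pa2g4 (chr10:127994818-128000219) encodes EBP1, a protein of the ribosome's exit tunnel and of growth control. Its assembled isoform Pa2g4_j2 had 915, 1022 and 273 FPKM in DRG neurons, against 0.02 and 0.98 FPKM in CGNs. Pa2g4_j1 was under 0.001 FPKM in all 3 DRG libraries, against 1185 and 1895 FPKM in CGNs. The smallest share over the 5 libraries was 99.9%, and only in the library of DRG replicate 3 did the confidence bounds of the isoforms meet. Eftud1 (Efl1 in current naming), a GTPase that helps mature the large ribosomal subunit, had uc009idg.1 at 1073, 766 and 607 FPKM in DRG neurons and under 0.001 FPKM in both CGN libraries. Its Eftud1_j1 had 9.6, 3.82 and 0.16 FPKM in DRG neurons, against 179 and 397 FPKM in CGNs. The table also gives a grouped FPKM, estimated from all libraries of a type jointly. There uc009idg.1 held almost none of Eftud1 in DRG neurons, so the DRG top isoform of this gene was not the same in the single and grouped estimates.

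Hnrnpr, an RNA-binding protein of the hnRNP family that is known in motor neurons for its part in axonal mRNA transport, had 6 isoforms. Hnrnpr_j3 had 212, 3206 and 846 FPKM in DRG neurons, against 797 and 2125 FPKM in CGNs, and Hnrnpr_j5 had 3.74, 16.6 and 4.2 FPKM in DRG neurons, against 3434 and 6274 FPKM in CGNs. The spread among the DRG libraries of Hnrnpr_j3 covered both CGN libraries, while Hnrnpr_j5 was low in every DRG library. Pspc1, a protein of nuclear paraspeckles, was led by uc007ucj.1, at 647 to 1149 FPKM in DRG neurons and 396 to 1171 FPKM in CGNs, which overlapped. Its Pspc1_j1 had 53.7, 486 and 11.5 FPKM in DRG neurons, against 1213 and 1943 FPKM in CGNs. Xpo1, the main exporter of proteins from the nucleus, was led by Xpo1_j2, at 2024 to 3345 FPKM in DRG neurons and 13.9 to 93.2 FPKM in CGNs, and in CGNs by Xpo1_j1, which overlapped. The gene 6530401N04Rik (Dtd2), whose product removes wrongly charged amino acids from tRNA, had uc007nne.1 at 1091, 1662 and 983 FPKM in DRG neurons, against under 0.001 and 56.2 FPKM in CGNs. Its uc007nnd.1 had 46.2, 6.56 and under 0.001 FPKM in DRG neurons, against 288 and 530.4 FPKM in CGNs.

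Genes of transcription and chromatin were 8, and in 6 of them the isoforms moved in opposite directions without overlap. The same held in 34 of all 70 members, and nothing is read from this count. Dpf2, a subunit of the BAF chromatin remodelling complex, had nearly equal totals, with 5647, 7787 and 4764 FPKM in DRG neurons, against 4120.2 and 6937 FPKM in CGNs. Its Dpf2_j1 had 4119, 7558 and 3753 FPKM in DRG neurons, against 254 and 1161 FPKM in CGNs, and uc008gfw.1 had 1477, 174 and 889.6 FPKM in DRG neurons, against 3498 and 5336 FPKM in CGNs. Dpf2 is thus a gene whose total overlapped while neither isoform did. E2f2, a transcription factor of the cell cycle, had E2f2_j1 at 83.7, 130.3 and 83.3 FPKM in DRG neurons, against 6.15 and 143 FPKM in CGNs. Its uc008vht.1 had 15.1, 3.43 and 3.58 FPKM in DRG neurons, against 937 and 1405 FPKM in CGNs, and the total of E2f2 was the lowest relative to CGNs of all 70, with a log2(FPKM + 50) difference of -3.02. Of the proliferation markers, 6 of 7 tested genes were lower in DRG neurons too, while Pcna was higher. The part of dividing cells in E2f2 was not tested.

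Mll2, a histone H3 lysine methyltransferase, had Mll2_j1 at 458, 90.4 and 269.5 FPKM in DRG neurons, against 46.5 and 52.7 FPKM in CGNs. Its uc007xoc.1 was under 0.001 FPKM in DRG replicates 1 and 2 and at 62.5 FPKM in DRG replicate 3, against 165 and 362 FPKM in CGNs. The confidence bounds of these isoforms were apart in only 1 of the 5 libraries. Zfp324, a zinc finger protein, had uc009fer.1 at 293, 234 and 1337 FPKM in DRG neurons, against under 0.001 and 0.05 FPKM in CGNs. Its uc009fes.1 had under 0.001, 13.9 and under 0.001 FPKM in DRG neurons, against 66.2 and 62.3 FPKM in CGNs. In DRG replicate 2 the confidence bounds of uc009fer.1 were 0 to 507 FPKM. In the grouped FPKM uc009fer.1 held only 0.00459% of Zfp324 in DRG neurons. Among the other zinc finger genes, Zfp647 was led by uc007wmu.1 and in CGNs by Zfp647_j1, and Rbak, an RB-binding repressor, by uc009ajq.1 and in CGNs by Rbak_j1. EG382639 (Zbtb42) is a doubtful member, since both of its top rows carry the same reference identifier, uc007pfa.1.

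Id1, an inhibitor of bHLH transcription factors, needs care as well. Its locus in the table runs over 67970 bases (chr2:152495179-152563148) and also covers H13 and Mcts2, while the annotated gene spans 1160 bases. The row named Id1_j1 had 6481, 3150.0 and 3595 FPKM in DRG neurons, against 825 and 2025 FPKM in CGNs. The reference transcript of Id1, uc008ngf.1, had 57.3, 13.3 and 22.4 FPKM in DRG neurons, against 19048 and 26568 FPKM in CGNs. The largest difference of any CGN top isoform among the 70 was this one, with a log2(FPKM + 50) difference of -8.16.

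Signalling proteins and surface receptors were 7. Csnk1d, casein kinase 1 delta, which acts on the circadian clock among other substrates, had uc007mva.1 at 15147, 9749 and 17004 FPKM in DRG neurons, against 1393 and 2363 FPKM in CGNs. Its uc007mvb.1 had 2121, 1953 and 878 FPKM in DRG neurons, against 4162 and 6774 FPKM in CGNs, so both isoforms kept apart in opposite directions. F3, tissue factor, the starter of blood clotting, had uc008ree.1 at 1073, 241 and 268 FPKM in DRG neurons, against 0.99 and 55.5 FPKM in CGNs. Its F3_j1 had 43.7, 8.92 and 8.8 FPKM in DRG neurons, against 248 and 245 FPKM in CGNs.

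Ppm1d, a phosphatase of the p53 response, was the 1 gene with both isoforms lower in DRG neurons. Its uc007krl.1 had 694, 703 and 524 FPKM in DRG neurons, against 725 and 1082 FPKM in CGNs. This gap was narrow, since the confidence bounds were 533 to 873 FPKM in DRG replicate 2 and 529 to 921 FPKM in CGN replicate 1. The isoform Ppm1d_j1 had 94.2, 246 and 123 FPKM in DRG neurons, against 1239 and 2190.0 FPKM in CGNs. Spry1, a feedback inhibitor of receptor tyrosine kinases, was led by Spry1_j1, at 404 to 1132 FPKM in DRG neurons and 1.42 to 19.9 FPKM in CGNs, and in CGNs by Spry1_j2. Il17rc, a subunit of the interleukin-17 receptor, was led in DRG neurons by Il17rc_j2, at 303 to 341 FPKM and listed at 0 in both CGN libraries. In CGNs it was led by Il17rc_j1, at only 69.2 and 86.3 FPKM. Tnfrsf10b, a death receptor for TRAIL, was led by Tnfrsf10b_j1 and in CGNs by Tnfrsf10b_j2. Layn, a hyaluronan receptor, was led by Layn_j4, at 495 to 930.1 FPKM in DRG neurons and 0.05 to 0.19 FPKM in CGNs. In CGNs it was led by Layn_j2, at only 60.6 and 79.0 FPKM, with lower confidence bounds of 0.

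Metabolism, mitochondria and solute transport gave 11 members, none with a total lower in every DRG library, where 14.2% of the 6374 genes had one, and nothing is read from this count either. Opa1, the dynamin-like GTPase that fuses the inner mitochondrial membrane, had uc007ywf.1 at 1986, 2093 and 2167 FPKM in DRG neurons, against 0.00872 and 31.4 FPKM in CGNs. Its Opa1_j2 had 130.5, 48.6 and 419.7 FPKM in DRG neurons, against 693 and 1274 FPKM in CGNs. Neither isoform of Opa1 overlapped, and the share of uc007ywf.1 was 70.6% ± 2.25 in DRG neurons and 1.17% ± 1.66 in CGNs (SD, n = 3 and 2). Gpd2, the mitochondrial glycerol-3-phosphate dehydrogenase, had uc008jsc.1 at 1639.6, 1360.3 and 2325 FPKM in DRG neurons, against 244 and 2.71 FPKM in CGNs. Its uc008jsb.1 had 673, 905 and 232 FPKM in DRG neurons, against 449 and 881 FPKM in CGNs, which overlapped.

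Pdk3, a kinase that switches off pyruvate dehydrogenase, was led by uc009tsx.1, with 77.6% to 93.5% of the gene in DRG neurons, and by Pdk3_j1, with 70.3% to 80.9% in CGNs. Acyp1, an acylphosphatase in a locus shared with Mlh3, was led by uc007ogu.1 and in CGNs by Acyp1_j2. Pla2g12a, a secreted phospholipase A2, was led by uc008rio.1 and in CGNs by Pla2g12a_j1, both higher in DRG neurons. Pld3, an endolysosomal nuclease, was led by uc009fwm.1 and in CGNs by Pld3_j2, and its locus also covers Hipk4. The solute carrier 3110004L20Rik (Slc22a23) was led by uc007qbh.1 and in CGNs by 3110004L20Rik_j2. Nramp2 (Slc11a2), the transporter of iron into cells, was led by Nramp2_j1, at 501 to 1345 FPKM in DRG neurons and up to 117 FPKM in CGNs, and in CGNs by Nramp2_j2.

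Members of this group also include 2 genes that lie among close relatives, where the authors' assembly could have joined neighbouring genes. Gstm6, a glutathione transferase, has a locus that also covers Gstm7, Gstm3, Gstm2, Gstm1 and Gstm4. Gstm6_j5 had 530.1, 305 and 66.0 FPKM in DRG neurons and under 0.001 FPKM in both CGN libraries, and Gstm6_j2 was under 0.001 FPKM in all 3 DRG libraries, against 53.7 and 105 FPKM in CGNs. The aldo-keto reductase 2310005E10Rik (Akr1b10) shares its locus with Akr1b8 and Akr1b7. Its 2310005E10Rik_j2 had 2943, 2009.8 and 2893 FPKM in DRG neurons, against 1.24 and 91.9 FPKM in CGNs, and 2310005E10Rik_j3 had 52.2, 502 and under 0.001 FPKM in DRG neurons, against 232 and 774 FPKM in CGNs. Which of the related genes these rows stand for is uncertain.

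Ubiquitin ligases and their adaptors were 5. Cul5, a cullin scaffold, was led by Cul5_j1, at 727 to 823 FPKM in DRG neurons and 0.02 to 0.45 FPKM in CGNs, and by uc009pmi.1, at 1.6 to 77.7 FPKM in DRG neurons and 429 to 789.8 FPKM in CGNs. In the grouped FPKM uc009pmi.1 held almost none of Cul5 in CGNs. The total of Cul5 overlapped between the cell types. Klhl7, a cullin-3 adaptor, was led by uc008wqy.1 and in CGNs by Klhl7_j1, with a narrow shift of 31.3 points. Trim16 was led by uc007jka.1 and in CGNs by Trim16_j1, EG240055 (Neurl1b) by uc008bec.1 and in CGNs by EG240055_j1, and BPOZ (Abtb1) by BPOZ_j1 and in CGNs by BPOZ_j2.

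The other 15 members include genes with little or no described role. A630047E20Rik (Tbck), which resembles a protein kinase with a Rab GTPase-activating domain, had A630047E20Rik_j1 at 1025, 1053 and 554 FPKM in DRG neurons, against under 0.001 and 0.03 FPKM in CGNs. Its A630047E20Rik_j2 had under 0.001, 14.0 and 79.5 FPKM in DRG neurons, against 722 and 1172 FPKM in CGNs, while the total overlapped, with a log2(FPKM + 50) difference of -0.05. The galectin-like 1110067D22Rik (Lgalsl) had 1110067D22Rik_j1 at 1766, 1448 and 363 FPKM in DRG neurons, against 0.11 and 164 FPKM in CGNs, and uc007idj.1 at 32.7, 142 and 23.8 FPKM in DRG neurons, against 116 and 635 FPKM in CGNs. Klhdc1, a kelch protein, had the largest difference in total, 3.74 on the log2(FPKM + 50) scale. Its Klhdc1_j1 was at 619 to 1529 FPKM in DRG neurons and listed at 0 in both CGN libraries. In CGNs uc007nrx.1 led at only 58.3 and 53.1 FPKM, close to the limit of 50 FPKM. Ankrd49 was led by uc009ofb.1 and in CGNs by uc009ofa.1, and Dmwd, a WD-repeat protein, by uc009fkk.1 and in CGNs by Dmwd_j1, with the narrowest shift of all, 28.5 points.

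Further members of this set were Ccdc127 (uc007rfc.1 in DRG neurons, uc007rfd.1 in CGNs), Ttc9c (uc008gnf.1, Ttc9c_j1), B230219D22Rik (uc007qrx.1, B230219D22Rik_j1), 3110050N22Rik or Zc2hc1a (uc008oog.1, 3110050N22Rik_j1) and 1600002H07Rik or Tedc2 (uc008avb.1, 1600002H07Rik_j2), each pair naming the top isoform of DRG neurons and that of CGNs. The rest were C030027K23Rik or Parp4 (uc007uce.1, C030027K23Rik_j1), mKIAA0375 or Rusc2 (mKIAA0375_j2, mKIAA0375_j3), Tmco6 (Tmco6_j1, uc008eoi.1) and Sept14 (uc009pus.1, uc009puq.1). Among these the DRG top isoform had log2(FPKM + 50) differences of 1.25 (Tmco6) to 4.27 (mKIAA0375). The row named Sept14 lies on chromosome 9 over the gene 1700017B05Rik and was not matched to an annotated gene of that name. 4930422G04Rik (Zgrf1) is a doubtful member, because its top rows, both named 4930422G04Rik_j1, lie on neighbouring loci that do not overlap.

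Totals of the members were compared with those of all genes, with nothing read from the members' calls, since their choice used the same contrast. The total was higher in every DRG library than in every CGN library in 37 of the 70 genes (52.9%), against 46.5% of the 6374 genes, and lower in 11 (15.7%), against 14.2%. In limma on log2(FPKM + 50), 30 members were called higher and 7 lower, while 28.4% of the 13275 genes tested were called higher and 9.22% lower. The median log2 difference of the totals was 1.06 in the members and 0.62 in the 6374 genes. This median of all genes tested, 0.59, moved with the scaling, to 0.02 with quantile normalization, -0.27 with equal total FPKM and -0.03 with median ratio scaling, and the members' median was then 0.31, 0.12 and 0.38.

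Members had fewer isoforms than other genes, with 36 of 70 (51.4%) having exactly 2, against 27.8% of the 6374 genes. The limit of 60% acts on the number of isoforms, so this count describes the choice. The DRG top isoform was a reference transcript in 42 of 70 members and the CGN top isoform in 26 of 70. In the 1520 genes in which 1 isoform led all 5 libraries with at least 60%, it was a reference transcript in 78.0%. A member needs 2 different top isoforms, and 69.4% of all isoforms were assembled, so the choice shapes this comparison too and nothing is read from it. Both top isoforms were reference transcripts in 15 members, among them Ndrg4, Sv2b, Cyfip1, Dctn4, Stx18, Csnk1d and Gpd2. Another protein-coding gene lay within the locus of 15 of the 69 matched members (21.7%), against 31.5% of the matched genes of the same kind, and without these 15 and the unmatched Sept14 there were 54 members. Besides the loci named above, those of Ric3 (with Tub), BPOZ (with Podxl2), mKIAA0375 (with Fam166b), Ccdc127 (with Lrrc14b), Tmco6 (with Ndufa2), Ap4s1 (with Strn3) and Nramp2 (with Gm5475) held another gene. Whether reads were counted by strand is not given in the sources used here, so reads of overlapping genes may not have been told apart.

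A change of the top isoform was also common between libraries of the same cell type. Between a DRG and a CGN library, 599 to 690 of the 6374 genes (9.40% to 10.8%) had different top isoforms with at least 60% each. Between DRG libraries the number was 493 to 519 (7.73% to 8.14%), and between the CGN libraries it was 427 (6.70%). The top isoform was the same in all 3 DRG libraries in 55.4% of the genes and in both CGN libraries in 69.7%. Of the 2826 genes with the same top isoform within each cell type, 360 (12.7%) had different ones in DRG neurons and CGNs, and the 70 members are those of the 360 that met the limit of 60% in every library.

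**Figure D4:**
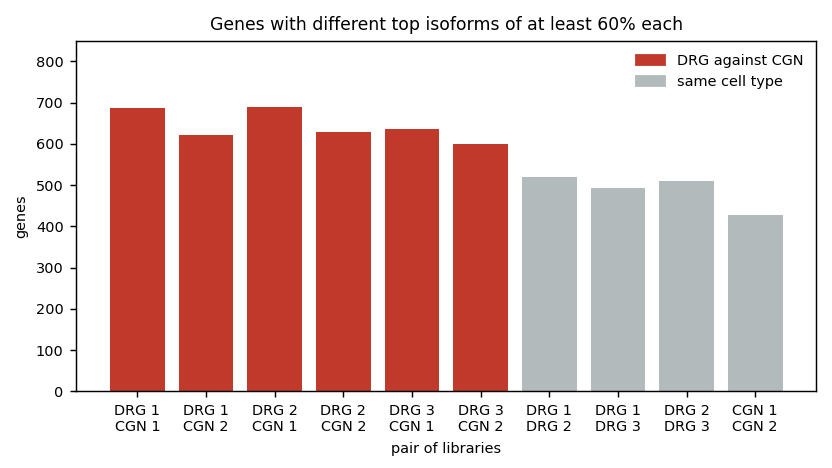
Number of genes, of 6374, whose top isoforms differ and hold at least 60% each, for each pair of libraries, with DRG against CGN pairs on the left and pairs of the same cell type on the right. The pairs between cell types have 599 to 690 such genes and the pairs within a cell type 427 to 519.

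To see how such genes behave in a library that did not choose them, the rule was applied to 4 libraries and the fifth was read. Without DRG replicate 1, 98 genes were chosen, and in that library 75 (76.5%) had the top isoform of the other DRG libraries and 20 that of CGNs. The same share was 70.6% of 109 genes for DRG replicate 2 and 74.0% of 123 for DRG replicate 3. For the CGN libraries, where 1 library was left to choose the CGN isoform, it was 60.8% of 143 genes for CGN replicate 1 and 51.7% of 172 for CGN replicate 2. Over all genes whose other libraries of that cell type had 1 top isoform of at least 60%, the same isoform led in the library left out in 88.9% to 91.3% for the DRG libraries and in 80.6% to 80.7% for the CGN libraries. In all 5 libraries the percentage was below that of all such genes, a difference that was not tested. The chosen genes had to differ between the cell types, which was not asked of all such genes. The percentages are thus of unlike genes, and nothing is read from their difference. Requiring 60% in the library left out as well leaves the same 70 genes each time, by construction.

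**Figure D5:**
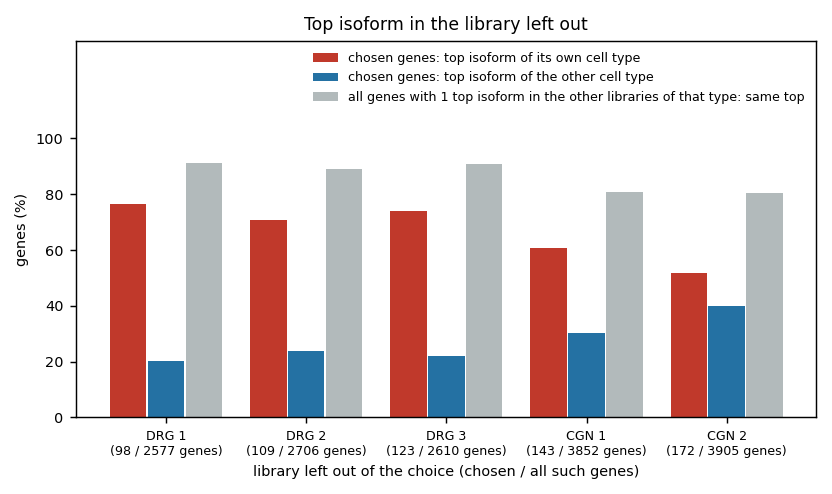
Percentage of genes whose top isoform in the library left out is that of its own cell type or that of the other cell type, for the genes chosen from the other 4 libraries, and, in grey, the percentage of all genes with 1 top isoform in the other libraries of that cell type that keep it. The grey bars are the tallest in each library, and the own-type bars run from 51.7% (CGN replicate 2) to 76.5% (DRG replicate 1).

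The authors' confidence bounds and grouped estimates were read for the members as well. Both come from the libraries that chose the genes, so they give no independent support. The bounds were not compared in other genes. In 41 of the 70 genes the bounds of the top isoforms were apart in all 5 libraries, in 12 in 4 libraries, in 9 in 3, in 6 in 2, and in Gstm6 and Mll2 in 1. In the grouped FPKM, 57 members had the same top isoforms as in the single libraries. In 12 others, among them Eftud1, Zfp324, 1110067D22Rik, 2310005E10Rik, Tpd52, Hnrnpr, Cul5, Il17rc, Tmco6, EG240055 and C030027K23Rik, only 1 of the top isoforms was the same, and in Nramp2 neither was. Ndrg4, Sv2b, Cyfip1, Csnk1d, Dctn4, Stx18, Kifap3, Vamp4, Dpf2, Opa1, Gphn and Id1 had their bounds apart in all 5 libraries and the same top isoforms in the grouped estimate. Of these, the loci of Cyfip1, Stx18 and Id1 also cover other genes, as given above.

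Which exons enter an mRNA depends on RNA-binding proteins, and the levels of such regulators were tested apart from the members. Of 47 splicing regulators, 35 could be tested, and 4 were higher and 10 lower in DRG neurons (limma on log2(FPKM + 50), adjusted p under 0.05 over 13275 genes), while 21 did not pass. Over all genes tested, 28.4% were called higher and 9.22% lower. The median log2 difference of the regulators was -0.50, against 0.59 over all genes tested. The muscleblind protein Mbnl2 had 16535, 18361 and 20061 FPKM in DRG neurons, against 1404 and 2277 FPKM in CGNs, a log2 difference of 3.32 (SE 0.34, limma adjusted p = 0.00014). Mbnl1 was higher by 2.60 (SE 0.34, limma adjusted p = 0.00053) and Celf6 by 1.59 (SE 0.40, limma adjusted p = 0.013). Celf6 was not called with equal total FPKM, with median ratio scaling or without CGN replicate 1 (log2 difference 1.34). Muscleblind proteins are known to shift exon choice as tissues mature.

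The Nova proteins, splicing factors of neurons, were lower in DRG neurons. Nova2 had 115, 59.9 and 367 FPKM in DRG neurons, against 2946 and 4448 FPKM in CGNs, a log2 difference of -4.22 (SE 0.65, limma adjusted p = 0.0012). Nova1 had 346, 394 and 491 FPKM in DRG neurons, against 5448 and 9352 FPKM in CGNs, a log2 difference of -3.98 (SE 0.43, limma adjusted p = 0.0002). Celf3 was lower too, with a log2 difference of -3.41 (SE 0.49, limma adjusted p = 0.00081). The split of 4 higher and 10 lower regulators depended on the scaling, with 3 higher and 24 lower after quantile normalization, 2 and 26 with equal total FPKM, and 2 and 24 with median ratio scaling. Without CGN replicate 2 it was 7 higher and 6 lower, and without CGN replicate 1 it was 2 higher and 13 lower.

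Of 20 cleavage and polyadenylation factors, which set where an mRNA ends, 19 could be tested, and 0 were higher and 1 lower in DRG neurons (limma, adjusted p under 0.05). At an unadjusted p under 0.05 there was 1 in each direction. The 1 was Cpsf4, a zinc finger subunit of the complex that recognises the polyadenylation signal, with 362, 896 and 997 FPKM in DRG neurons, against 2398 and 4266 FPKM in CGNs (log2 difference -2.13, SE 0.53, limma adjusted p = 0.012). Without CGN replicate 2 the call of Cpsf4 was lost (log2 difference -1.72). None of the regulators in either list was itself a member. No relation between these regulators and the isoforms of the 70 genes was tested.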

How the data were processed

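Polyadenylated RNA of 3 DRG and 2 CGN cultures was sequenced. Reads were mapped by the authors with TopHat (genome build mm9) and built into transcripts by Cufflinks without an annotation. These were joined with known transcripts by Cuffcompare, and Cuffdiff gave their FPKM under upper-quartile normalization. The deposited FPKM of each library, with its confidence bounds, and the grouped FPKM of each cell type were used as given. Fold changes, p-values and test status of the authors' own comparison are also in the table and were not used. The study states the depth of its libraries, which was not used here, and the table holds FPKM without counts, so no counting error was computed.

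Rows of a gene were joined by symbol after removal of the assembly suffix, and an isoform's share is its FPKM over the sum of the gene's rows. The members and gene lists were chosen with earlier results of these data known. Differences of FPKM are of log2(FPKM + 50), averaged over libraries, which understates the change of low values. Gene totals were tested with limma 3.58.1 under R 4.3.3 (moderated with a mean-variance trend), for genes that reached 50 FPKM in 2 or more libraries, with Benjamini-Hochberg adjustment over 13275 genes and calls at an adjusted p under 0.05. The script was tested on simulated data. Nothing in the labels says that the libraries of a cell type came from separate experiments, so p-values measure the spread between these libraries, with n = 3 and 2.

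Every member was named with its top isoforms, except 3 that are not reported here, the FPKM of each library was given for the 25 members with the largest smallest share and for members needed to describe a group, and of the regulator lists up to 3 genes called in each direction with the largest change were named. The groups by role were made by hand. Current symbols came from RefSeq, and positions, neighbouring genes and coding segments from GENCODE M1 on NCBIM37, the sequence of mm9, where 69 of 70 members matched. Python 3.11.15 with pandas 2.3.3 and numpy 2.4.6 was used for counts and shares. The alternatives were other shares, FPKM floors and isoform numbers, the grouped FPKM, separate confidence bounds, each library left out, other pseudocounts, filters and scalings, limma without trend, and a replicate block.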

Additional observations from a re-analysis of the deposited data

How the results depend on the processing

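The number of genes that change their top isoform depends on the rule. It was 70 as reported, 197 with a share of at least 50%, 27 with at least 70% and 12 with at least 80%. With a summed FPKM of at least 500 it was 32, with exactly 2 isoforms 36, and with confidence bounds apart in every library 41. Applied to the grouped FPKM, which has no replicates, the rule gave 627 genes, of which 50 were members. With 1 library left out the rule gave 104 to 184 genes (116 without DRG replicate 2, 133 without DRG replicate 3, 166 without CGN replicate 1 and 184 without CGN replicate 2). The 70 members are among them by construction, since leaving out a library only removes conditions. Leaving out genes with a repeated reference identifier (69) or loci with another coding gene (54), both chosen after seeing the data, stayed within 1.5 times. In the grouped FPKM the share of the DRG top isoform, DRG minus CGN, was reversed in Nramp2 (-14.8 points) and C030027K23Rik (-22.4 points) and 0 in Eftud1. It moved by more than the spread between replicates in 26 members and by less in 41. With 1 library left out its direction is fixed by the rule and says nothing of stability. Without the limit of 60% in the library left out, the percentages were 74.0 for DRG replicate 3, 60.8 for CGN replicate 1 and 51.7 for CGN replicate 2, against 56.9, 49.0 and 40.7 with it.

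For gene totals, 3775 genes were higher and 1224 lower in DRG neurons. Equal total FPKM gave 2287 higher and 3502 lower, and the lower count was 2809 with quantile normalization and 2793 with median ratio scaling. With 1 library left out, 2233 to 4535 were higher and 359 to 1330 lower. Without CGN replicate 1 the counts were 2233 higher and 637 lower, and without CGN replicate 2 they were 4535 higher and 359 lower. Of the splicing regulators, 2 were higher with equal total FPKM and with median ratio scaling, and 24 lower with quantile normalization, 26 with equal total FPKM and 24 with median ratio scaling, while leaving out 1 library gave 2 to 7 higher and 6 to 13 lower. Of the cleavage and polyadenylation factors, 3, 7 and 4 were lower with quantile normalization, equal total FPKM and median ratio scaling, and leaving out 1 library gave 0 to 4 higher and 0 to 2 lower, with 4 higher and 0 lower without CGN replicate 2 and 2 lower without CGN replicate 1. With a library of CGNs left out, the lone CGN sample is assumed to vary like the DRG libraries. The cause of these shifts was not tested.

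Nothing in the labels pairs DRG and CGN libraries of the same replicate number. The deviations of same-numbered DRG and CGN libraries from their group means had correlations of -0.02 and 0.01. With 2 CGN libraries the deviations of 1 mirror those of the other, so these values cannot show whether libraries were prepared together. With a replicate block, 2444 gene totals were higher and 1031 lower, 2 splicing regulators were higher and 5 lower, and 1 cleavage and polyadenylation factor was lower. Of the 15 regulators called in both lists, 8 kept their call with the replicate block, which was lost for Celf6 (log2 difference 1.38) among those named, and 10 to 12 with 1 library left out, and none changed direction under any alternative run.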
